A study of Homo sapiens with 8 samples.

Results

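The genes described here are 10 genes of the actin cytoskeleton and of the transcription programs that read its state, namely ACTB, ACTG1, TAGLN, MYL9, TPM1, VCL, FLNA, CCN1, CCN2 and ANKRD1. They were found by symbol among the 60664 genes of the count table, and 9 of the 10 had reads. MYL9, which encodes a myosin regulatory light chain of contractile cells, had 0 counts in all 8 libraries and was not measured. SDHA, TMSB10, ARPC1A, ARPC1B and JUNB, which most cells express, were also listed at 0 in all 8 libraries, and CFL1, the gene of cofilin, had 29 to 76 counts. A 0 in this table therefore does not show that a transcript was absent, and the cause of these zeros was not tested. The list was drawn up after ACTB had been seen to be lower with AX-0085 alone, and was thus selected on the counts of AX-0085 and untreated cells. For these 10 genes, every difference between AX-0085 and untreated cells, and each interaction that uses them, is given below as a description and without a test. Other genes are tested in these comparisons, although their lists too were chosen with earlier results of these data known.

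RNA was sequenced from A549, an established human lung adenocarcinoma line, in 8 libraries that form 4 groups of 2. Untreated cells received neither agent. The IFN-γ group was given the cytokine interferon-γ, which the labels put at 20 ng. The AX-0085 group was given the kinase inhibitor AX-0085 (AX0085 in the labels) at 0.5 µM, and the combined group was given both, with the inhibitor added 24 h after IFN-γ and left for another 24 h. All groups are 1 cell line at 1 dose and 1 time, and the labels do not say whether the libraries of a group came from separate cultures. The p-values therefore measure the spread between these libraries, which may be technical. With 2 libraries against 2, the smallest p that two-sided exact permutation can reach for one gene is 0.333, so the tests come from 1 model fitted across all genes.

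Actin monomers and filaments are in constant exchange, and 2 transcription systems follow that balance. Serum response factor (SRF) binds a short element called the CArG box and is switched on by its cofactors MRTF-A and MRTF-B, which free actin monomers hold in the cytoplasm. YAP and its paralog TAZ bind DNA through the TEAD factors and enter the nucleus when cells are spread and carry filaments under tension, and the Hippo kinases keep them out. CCN1, CCN2 and ANKRD1 are textbook YAP targets, CCN1 is also an SRF target, and ACTB, TAGLN, VCL, TPM1 and FLNA are cytoskeletal genes known to respond to SRF.

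The promoters show which of these elements lie close to the start sites. A table of RefSeq promoters on GRCh38.p14 matched 6 of the 10 genes, namely ACTG1, TPM1, VCL, FLNA, CCN2 and ANKRD1. The 250 bases before each start were searched on both strands for the CArG box and for GGAATG, the core letters of the TEAD element. The CArG box was present in 1.16% of all 35116 promoters and GGAATG in 11.9% of them, and the searched motifs do not overlap each other in the sequences printed here. CArG boxes lay 94 to 85 bases upstream of the start in both ACTG1 (chr17:81512864-81512913, minus strand) and FLNA (chrX:154374699-154374748, minus strand), as the capitals mark.
ACTG1: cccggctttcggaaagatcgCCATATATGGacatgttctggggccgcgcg
FLNA: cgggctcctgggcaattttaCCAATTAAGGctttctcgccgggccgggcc

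GGAATG was found 3 times in the CCN2 window, 2 times in that of ANKRD1 and 1 time in that of VCL. No CArG box was found in these windows, and sequence outside them was not searched. The TPM1 window held neither. A pair of CCN2 matches sat 104 to 99 and 95 to 90 bases upstream (chr6:131951451-131951496, minus strand). Those of ANKRD1 began 220 and 128 bases upstream (chr10:90921282-90921327 and chr10:90921190-90921235, minus strand). The sequences are shown because these genes changed most, with GGAATG in capitals. A match is a run of letters and does not show that a factor was bound there.
CCN2: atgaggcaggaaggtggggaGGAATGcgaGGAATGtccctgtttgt
ANKRD1, distal match: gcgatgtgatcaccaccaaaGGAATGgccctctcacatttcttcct
ANKRD1, proximal match: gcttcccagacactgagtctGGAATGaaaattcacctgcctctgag

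Libraries held 20672828 to 29978251 counts, and 3 counts, taken as the smallest level that can be read, correspond to 0.1001 to 0.1451 CPM (counts scaled to a common library size). Mitochondrial genes took 2.721% and 3.55% of the counts in the untreated, 4.117% and 5.729% in the AX-0085, 1.708% and 1.824% in the IFN-γ, and 2.869% and 3.431% in the combined libraries. This share was thus highest with AX-0085 and lowest with IFN-γ, without overlap of those groups, and its part in the results was not tested. Of the lung adenocarcinoma epithelial markers, 8 of 12 exceeded 10 CPM in at least 1 library. The list summed to 22106 to 22912 CPM in untreated cells, 22466 to 23316 with AX-0085, 18814 to 20328 with IFN-γ and 20766 to 20959 with both. With IFN-γ, 5 of the 11 that could be tested fell over 2-fold at an adjusted p under 0.05 and 0 rose, beside 17.2% and 10.3% of all genes. Endothelial and blood cell markers summed to 0.0402 to 0.956 CPM in every library, with 2 of 9 at 0. Fibroblast and smooth muscle markers, of which 3 of 14 (COL1A2, FAP and THY1) were listed at 0, as some widely expressed genes were too, summed to 353 to 386 CPM in untreated cells, 179 to 182 with AX-0085, 1154 to 1276 with IFN-γ and 276 to 280.1 with both. Nearly all of that sum was CSRP1, a LIM protein of the actin cytoskeleton that A549 cells express. Without CSRP1 the list summed to 16.9 to 17.3, 20.9 to 22.6, 9.33 to 10.5 and 14.2 to 15.9 CPM. Its part in the results was not tested. In these bulk samples, fewer cells with a transcript and less of it per cell cannot be told apart.

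The levels of the 9 measured genes fell into distinct patterns, shown by library in the plot of normalized CPM. Levels below are CPM scaled by trimmed mean of M-values, changes are log2 fold changes from edgeR with their standard errors (SE), and a gene was called when its adjusted p was under 0.05 and its change was over 2-fold. CCN1, CCN2 and TAGLN were highest with IFN-γ and low wherever AX-0085 was present. ANKRD1 was high without the inhibitor and almost lost with it. ACTB, TPM1 and VCL were also lower wherever the inhibitor was present, by smaller amounts and with little difference between IFN-γ and untreated cells. FLNA was highest with IFN-γ, and ACTG1 alone was highest with AX-0085.

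**Figure D1:**
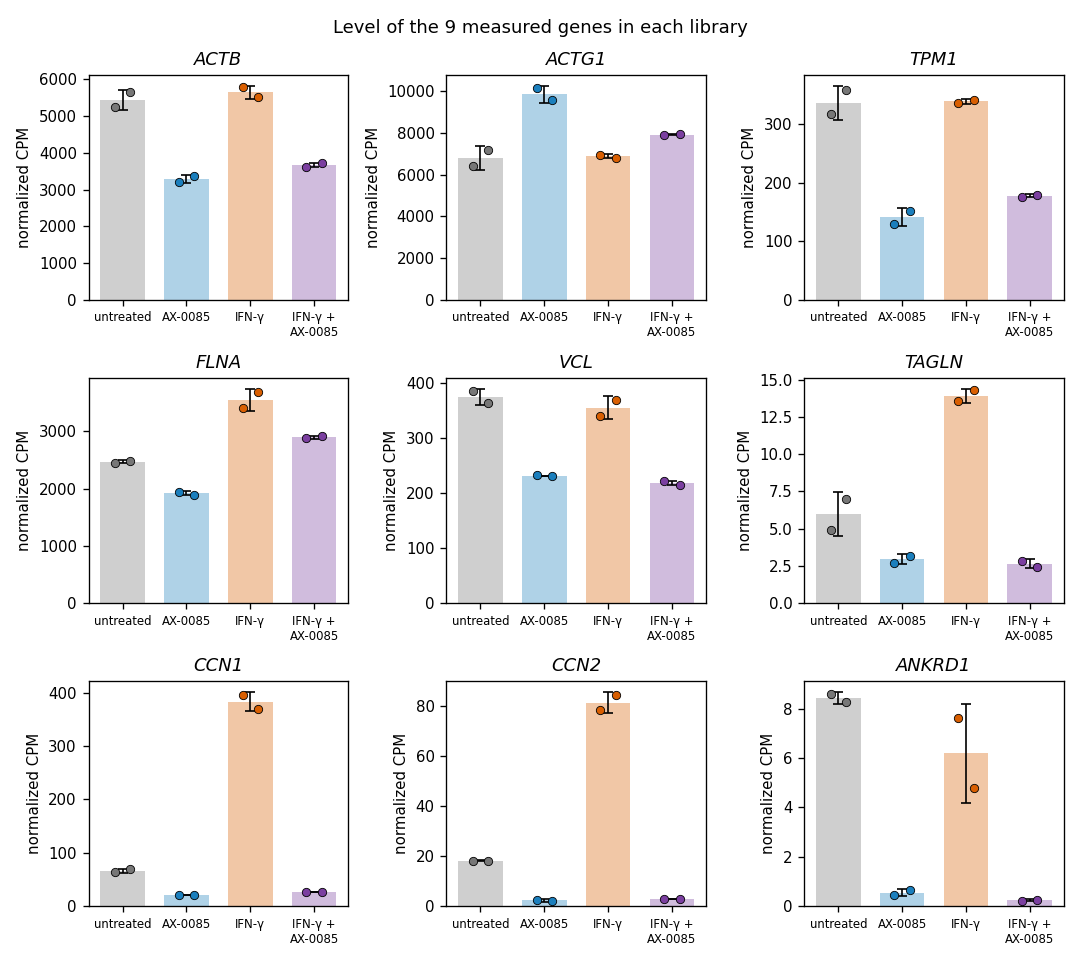
Normalized CPM (linear axes from 0) of the 9 measured genes in untreated, AX-0085, IFN-γ and IFN-γ + AX-0085 cells, with points for the 2 libraries of a group, bars for their mean and error bars for the SD. CCN1 stands at 369.7 and 395 CPM with IFN-γ and at 26.9 in both libraries of the combined group.

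In the comparison of IFN-γ with untreated cells, which asks what the cytokine does alone, 3 of the 9 genes were called higher and 0 lower, beside 10.3% and 17.2% of the 15066 genes tested. The median log2 change of the 9 was 0.05, against -0.059 over all genes tested. In AX-0085 against untreated cells, the comparison that led to the list, 0 lay over 2-fold higher and 5 over 2-fold lower, with a median of -1.01 against 0.014. Of all genes 6.41% and 5.62% were called there, and nothing is read from the members' numbers. With AX-0085 added to IFN-γ, 0 of 9 were called higher and 4 lower, beside 16.5% and 8.28% of all genes, with a median of -0.93 against 0.034. Between the combined group and AX-0085 alone, 0 were called in either direction, beside 1.79% and 1.73% of all genes, with a median of 0.16 against -0.006. The interaction, the change of AX-0085 added to IFN-γ minus that of AX-0085 alone, was over 2-fold in size and positive for 0 and negative for 3 members (TAGLN, CCN1 and CCN2). It was called higher for 12.1% and lower for 6.46% of all genes. The untreated libraries enter both the first and the second comparison, and the IFN-γ libraries both the first and the third. The AX-0085 libraries enter both the second and the fourth, and the combined libraries both the third and the fourth. These comparisons are thus not independent of each other. The first and the fourth each use a group on which the list was selected, so the members' p-values there are not free of that selection.

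Without the fold limit, the adjusted p passed for 4 members higher (TAGLN, FLNA, CCN1 and CCN2) and 1 lower (ANKRD1) with IFN-γ, beside 32.1% and 36.0% of all genes. With AX-0085 added to IFN-γ it passed for 0 higher and 8 lower, beside 33.7% and 32.8%, and ACTG1 was the gene that did not pass. Between both agents and AX-0085 alone it passed for 3 higher (TPM1, FLNA and CCN1) and 1 lower (ACTG1), beside 17.3% and 17.4%. With AX-0085 alone 1 member lay higher and 8 lower, which is not a test, and 26.7% and 26.6% of all genes passed there. Libraries of the compared groups did not overlap for 4 higher and 1 lower with IFN-γ (37.8% and 43.3% of all genes), 1 and 8 with AX-0085 alone (38.8% and 37.4%), 1 and 8 on its addition to IFN-γ (42.6% and 40.0%), and 5 and 3 between both agents and AX-0085 alone (35.1% and 35.6%). With 2 libraries a group, groups without overlap were thus common in the whole table.

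**Figure D2:**
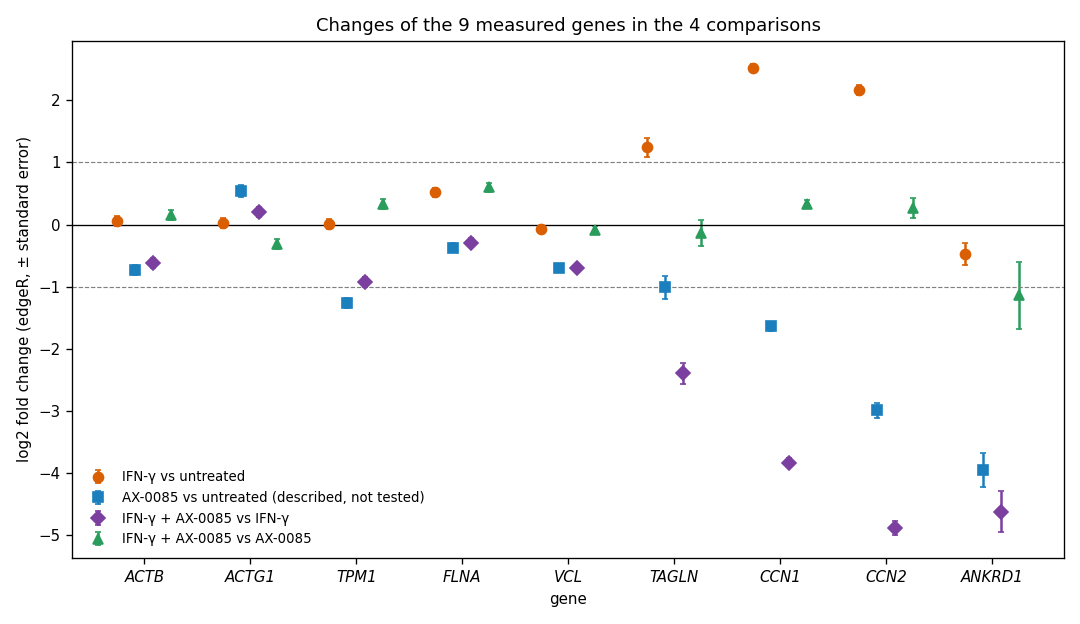
Log2 fold change (y axis) with its standard error for the 9 measured genes (x axis) in the 4 comparisons, with dashed lines at a 2-fold change. CCN2 and ANKRD1 lie lowest on addition of AX-0085 to IFN-γ, at -4.88 and -4.62, and ACTG1 is the only gene above 0 for AX-0085 against untreated, at 0.54.

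Among the actins, ACTB (chromosome 7, 5526409 to 5563902, minus strand, GRCh38), which encodes β-actin, had 158754 and 138508 counts in the untreated, 80772 and 89585 in the AX-0085, 109425 and 137463 in the IFN-γ, and 113422 and 82698 in the combined libraries. Normalized, these were 5253 and 5641 CPM in the untreated, 3217 and 3372 in the AX-0085, 5779 and 5526 in the IFN-γ, and 3627 and 3717 in the combined libraries. The libraries with the inhibitor did not overlap those without it, while IFN-γ and untreated libraries overlapped. The change with AX-0085 alone was -0.73 (SE 0.08), and with IFN-γ alone it was 0.05 (SE 0.08), or -0.06 when libraries were scaled by their size alone. Added to IFN-γ, which is the comparison that shares no library with the one that chose ACTB, AX-0085 lowered it by 0.62 on the log2 scale (SE 0.08, adjusted p = 9.868e-06), a fall below 2-fold. Scaling by library size alone gave -0.50. The combined group lay 0.16 (SE 0.08) from AX-0085 alone, with no overlap of the libraries.

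ACTG1 (chromosome 17, 81509413 to 81523847, minus strand), which encodes γ-actin, the other cytoplasmic actin, ran the other way. It stood at 6416 and 7199.7 CPM in the untreated, 10165 and 9579 in the AX-0085, 6969.8 and 6819 in the IFN-γ, and 7909 and 7936 in the combined libraries. The AX-0085 libraries were the highest, the combined group came next, and IFN-γ and untreated libraries overlapped. The log2 change was 0.54 (SE 0.09) with AX-0085 alone and 0.02 with IFN-γ (adjusted p = 0.8619). With AX-0085 added to IFN-γ it was 0.20, which missed the threshold (adjusted p = 0.05198), although it passed with DESeq2 (adjusted p = 0.03844) and with library-size scaling, where it was 0.32 (adjusted p = 0.001655). ACTG1 fell by 0.32 in the combined group relative to AX-0085 alone (adjusted p = 0.01141), less than 2-fold.

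The balance of the actins can be read within each library, where normalization cancels. Per base of annotated exon, the ratio of ACTB to ACTG1 was 0.753 and 0.721 in the untreated libraries, and IFN-γ libraries gave 0.763 and 0.745. It was 0.291 and 0.324 with AX-0085 alone and 0.422 and 0.431 with both. The ratio was thus lower in all 4 libraries with the inhibitor, and lower with AX-0085 alone than with both. ACTB made up 43.9% to 45.3% of the counts of the pair in the 4 libraries without inhibitor, 24.0% and 26.0% with AX-0085 and 31.4% and 31.9% with both. Summed, the pair held 1.17% to 1.36% of all counts, and 11536 to 13382 CPM. The coding sequences of the 2 genes are nearly identical and both have processed pseudogenes, so reads could be split between them in the authors' counting, and neither level is certain to that extent. A ratio shows unequal change only.

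**Figure D3:**
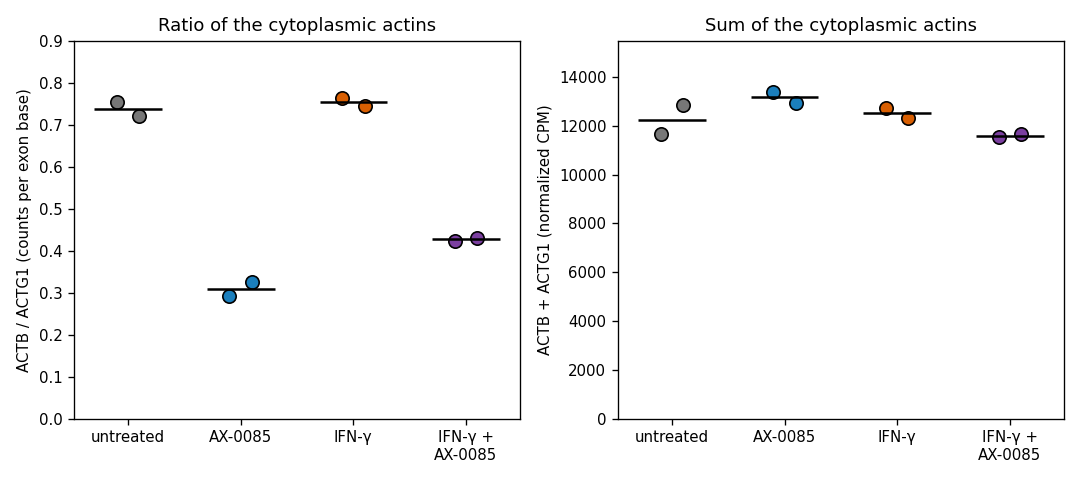
Ratio of ACTB to ACTG1 in counts per exon base (left) and their summed normalized CPM (right) in each of the 8 libraries, with lines at the group means and both axes from 0. The ratio lies between 0.721 and 0.763 in the 4 libraries without AX-0085 and between 0.291 and 0.431 in the 4 with it, while the sums lie between 11536 and 13382 CPM.

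Few reads were counted for the other actin isoforms. ACTA2, the smooth muscle actin, had 2 to 6 counts in every library, ACTA1 and ACTG2 had at most 4 and ACTC1 was listed at 0, below the level that could be tested. Among 18 listed actin isoforms and monomer regulators, 13 could be tested. Their only call with AX-0085 alone and upon its addition to IFN-γ was GSN, which encodes the filament-severing protein gelsolin. Of all genes 6.41% and 5.62% were called higher and lower with AX-0085 alone, and 16.5% and 8.28% upon its addition. GSN fell by 2.13 on the log2 scale with IFN-γ (SE 0.08, adjusted p = 1.394e-10), rose by 1.13 with AX-0085 alone (SE 0.07, adjusted p = 4.356e-08), and rose by 2.39 with AX-0085 added on top of IFN-γ (SE 0.08, adjusted p = 6.831e-11).

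ACTB is also used as a reference in PCR. The study amplified ACTB, HPRT1 and RPL13A, and GAPDH is another common reference gene. The highest group mean exceeded the lowest 1.72-fold for ACTB, 2.12-fold for HPRT1, 1.96-fold for RPL13A and 2.19-fold for GAPDH. Each of these genes was lowest in a different group, which was AX-0085 for ACTB, both agents for HPRT1, untreated for RPL13A and IFN-γ for GAPDH. In raw counts, ACTB to HPRT1 was 53.2 and 62.1 in the untreated, 55.3 and 55.2 in the AX-0085, 79.8 and 71.2 in the IFN-γ, and 82.6 and 81.6 in the combined libraries. ACTB to RPL13A was 2.16 and 2.14, 0.619 and 0.714, 1.18 and 1.29, and 0.709 and 0.774 in the same order. ACTB to GAPDH was 0.956 and 0.994, 0.544 and 0.583, 2.06 and 2.18, and 0.694 and 0.718, again in that order. GAPDH fell by 1.06 with IFN-γ (SE 0.08, adjusted p = 5.941e-08). HPRT1 changed by -0.75 with AX-0085 added on top of IFN-γ (SE 0.07, adjusted p = 7.982e-07). RPL13A changed by 0.86 with IFN-γ (SE 0.09, adjusted p = 1.911e-06).

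Of the filament-binding proteins, TPM1 (chromosome 15, 63042620 to 63071915, plus strand) encodes a tropomyosin, which lies along the filament and stabilizes it. It stood at 317 and 358 CPM in the untreated, 130.0 and 152 in the AX-0085, 336 and 342 in the IFN-γ, and 175 and 179.7 in the combined libraries. All 4 libraries with the inhibitor lay below all 4 without it, and IFN-γ and untreated cells overlapped, with a change of 0.01 (adjusted p = 0.9416). The log2 change was -1.26 (SE 0.08) with AX-0085 alone. TPM1 fell by 0.93 with AX-0085 added to IFN-γ (SE 0.08, adjusted p = 2.137e-07), just short of 2-fold, and was 0.33 higher with both agents than with AX-0085 alone (SE 0.08, adjusted p = 0.004996). Of its exon bases, 22.7% also lie in genes on the other strand.

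FLNA (chromosome X, 154348524 to 154374634, minus strand) encodes filamin A, which crosslinks filaments into networks. It stood at 2454 and 2485 CPM in the untreated, 1940.1 and 1893 in the AX-0085, 3405 and 3685 in the IFN-γ, and 2880.0 and 2917 in the combined libraries. No groups overlapped. FLNA and ACTG1 were the genes of the 9 whose combined libraries lay above the untreated ones. FLNA rose by 0.52 with IFN-γ (SE 0.07, adjusted p = 2.048e-05) and was 0.60 higher with both agents than with AX-0085 alone (SE 0.07, adjusted p = 4.28e-05). With AX-0085 alone the difference was -0.37. FLNA and ACTG1, the genes with a CArG box printed above, differed from untreated cells by -0.37 and 0.54 there, which is a description. Whether the CArG box had a part in either was not tested. FLNA fell by 0.29 with AX-0085 added to IFN-γ (SE 0.07, adjusted p = 0.002623). With libraries scaled by size alone the change was -0.17 and no longer passed (adjusted p = 0.05539). That scaling moved the median of all genes by 0.122, and relative to the median FLNA changed by -0.32 and -0.33 under the main and the other scaling.

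VCL (chromosome 10, 73995193 to 74121363, plus strand) encodes vinculin, which links filaments to adhesion sites. It stood at 385 and 364 CPM in the untreated, 232 and 231 in the AX-0085, 340.4 and 369 in the IFN-γ, and 221 and 215 in the combined libraries. The IFN-γ and untreated libraries overlapped, with a change of -0.08 (adjusted p = 0.2603). The log2 change was -0.70 (SE 0.06) with AX-0085 alone and -0.70 (SE 0.06, adjusted p = 2.869e-07) upon its addition to IFN-γ. Both agents differed from AX-0085 alone by -0.09 (adjusted p = 0.2963). VCL moved by about the same amount in the presence and in the absence of IFN-γ, with a difference between the changes of -0.01. Exon bases shared with the antisense AP3M1 made up 11.1% of VCL.

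TAGLN (chromosome 11, 117199370 to 117207464, plus strand) encodes transgelin, a calponin-like protein best known from smooth muscle. It was a rare transcript with 149 and 172 counts in the untreated, 68 and 84 in the AX-0085, 257 and 355 in the IFN-γ, and 89 and 54 in the combined libraries. Normalized, it stood at 4.93 and 7.01 CPM in the untreated, 2.71 and 3.16 in the AX-0085, 13.6 and 14.3 in the IFN-γ, and 2.85 and 2.43 in the combined libraries. The IFN-γ libraries were the highest, and those with AX-0085 alone and with both overlapped at the bottom. TAGLN rose by 1.24 with IFN-γ (SE 0.15, adjusted p = 7.425e-06) and fell by 2.39 upon addition of AX-0085 (SE 0.17, adjusted p = 5.158e-08). With AX-0085 alone it differed by -1.01 (SE 0.18), which was -0.75 without untreated replicate 2 and -1.24 without untreated replicate 1. In GENCODE 44, 47.8% of its exon bases also lie in PCSK7 or ENSG00000280143, and 38.1% do so on the same strand, so part of its reads may belong to those genes or have been left out.

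The strongest changes were in the YAP targets. CCN1 (chromosome 1, 85580761 to 85584589, plus strand), formerly CYR61, encodes a secreted matrix-associated protein that binds integrins. It had 1938 and 1704 counts in the untreated, 538 and 566 in the AX-0085, 7488 and 9196 in the IFN-γ, and 841 and 599 in the combined libraries. Normalized, these were 64.1 and 69.4, 21.4 and 21.3, 395 and 369.7, and 26.9 and 26.9 CPM. No groups overlapped. CCN1 rose 5.73-fold with IFN-γ, a log2 change of 2.52 (SE 0.06, adjusted p = 2.393e-12), and fell by 3.83 upon addition of AX-0085 (SE 0.07, adjusted p = 3.903e-13). The difference with AX-0085 alone was -1.64 (SE 0.07). With both agents CCN1 was 0.33 above AX-0085 alone (adjusted p = 0.003063), against 2.52 between IFN-γ and untreated cells. The change made by the inhibitor was larger by 2.19 on the log2 scale in the presence of IFN-γ, an interaction of -2.19 that is given without a test.

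CCN2 (chromosome 6, 131948176 to 131951372, minus strand), formerly CTGF, is a secreted paralog of CCN1 and among the most used readouts of YAP. It had 544 and 450 counts in the untreated, 65 and 53 in the AX-0085, 1485 and 2103 in the IFN-γ, and 87 and 61 in the combined libraries. Normalized, these were 18.0 and 18.3, 2.59 and 1.99, 78.4 and 84.5, and 2.78 and 2.74 CPM. All groups were apart from each other, although AX-0085 alone and both agents were close. CCN2 rose by 2.17 with IFN-γ (SE 0.08, adjusted p = 1.119e-10) and fell by 4.88 upon addition of AX-0085 (SE 0.11, adjusted p = 1.503e-12), which is 29.5-fold. With AX-0085 alone the difference was -2.99 (SE 0.12). Between both agents and AX-0085 alone it was 0.27, which did not pass (adjusted p = 0.2192). Its promoter, printed in part above, held the 3 GGAATG matches. Exon bases shared with the antisense LINC01013 made up 11.9% of CCN2.

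ANKRD1 (chromosome 10, 90912096 to 90921087, minus strand) encodes an ankyrin repeat protein of nucleus and sarcomere. It had 260 and 203 counts in the untreated, 11 and 17 in the AX-0085, 144 and 119 in the IFN-γ, and 7 and 6 in the combined libraries. Normalized, these were 8.60 and 8.27, 0.438 and 0.640, 7.61 and 4.78, and 0.224 and 0.270 CPM. All libraries with the inhibitor were above the level of 3 counts but under 1 CPM. ANKRD1 did not share the rise of CCN1 and CCN2 with IFN-γ. It changed by -0.47 (SE 0.18, adjusted p = 0.03428), a fall below 2-fold whose size ranged from -0.81 to -0.10 when single libraries were left out. It fell by 4.62 with AX-0085 added to IFN-γ (SE 0.33, adjusted p = 5.819e-08), and differed by -3.95 (SE 0.27) with AX-0085 alone. The combined group differed from AX-0085 alone by -1.14 (SE 0.54, adjusted p = 0.1197). Leaving out IFN-γ replicate 1 or 2, which that comparison does not use, brought this p to 0.04403 and 0.04861.

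The remaining textbook YAP targets were mostly lowered with the inhibitor too. Of 19 further YAP target genes, all tested, 4 were called higher and 0 lower with IFN-γ, beside 10.3% and 17.2% of all genes. Their median log2 change was 0.53. With AX-0085 alone 0 were called higher and 4 lower, beside 6.41% and 5.62%, with a median of -0.62. With AX-0085 added to IFN-γ 0 were called higher and 11 lower, beside 16.5% and 8.28%, with a median of -1.05. By adjusted p alone 1 was higher and 17 were lower there, beside 33.7% and 32.8% of all genes. The plot of YAP targets orders them by this change.

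**Figure D4:**
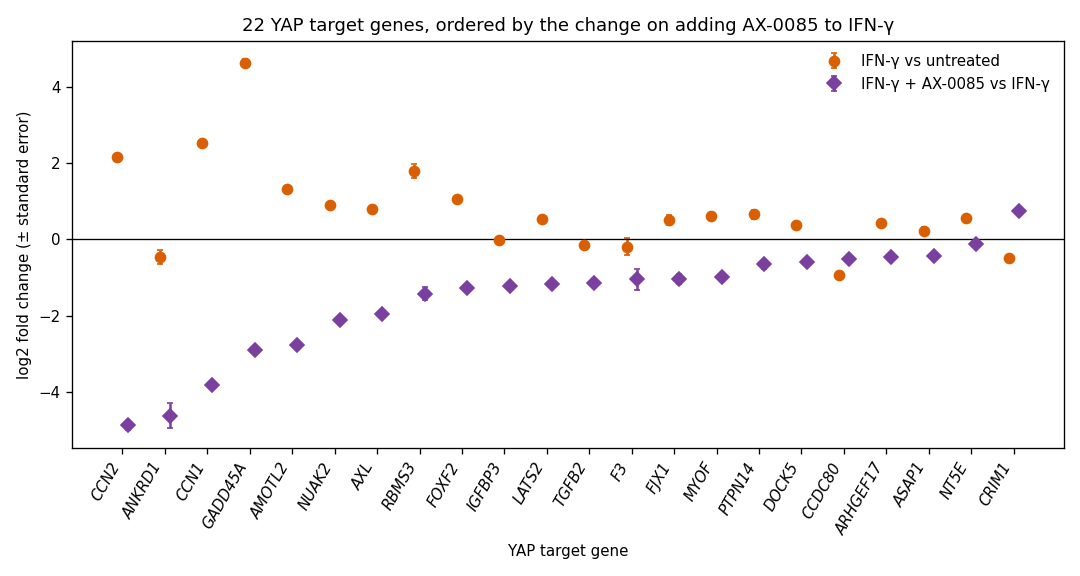
Log2 fold change (y axis, with standard error) of CCN1, CCN2, ANKRD1 and 19 further YAP target genes (x axis) for IFN-γ against untreated cells (circles) and for both agents against IFN-γ (diamonds), which share the IFN-γ libraries. The diamonds run from -4.88 for CCN2 to 0.74 for CRIM1, the only one above 0, and the circles reach 4.63 for GADD45A.

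GADD45A, a stress-induced growth arrest gene on the YAP target list, rose from a mean of 11.0 ± 1.80 to 271 ± 13.2 CPM (SD, n = 2) with IFN-γ, a log2 change of 4.63 (SE 0.10, adjusted p = 5.996e-13). It fell by 2.90 upon addition of AX-0085 (SE 0.08, adjusted p = 1.394e-11). GADD45A also answers to p53 and other stress pathways. AMOTL2, which encodes an angiomotin that holds YAP back and is itself induced by it, had the largest fall of the list with AX-0085 alone, from 137 ± 10.7 to 27.1 ± 0.174 CPM (SD, n = 2), a change of -2.33 (SE 0.07, adjusted p = 2.28e-10). Of the 4 other CCN family genes, 1 could be tested. CCN4, a Wnt-induced member, went against CCN1 and CCN2 with IFN-γ and when AX-0085 was added to it. With AX-0085 alone CCN4 was lower, as CCN1 and CCN2 were, with a change of -1.53. It fell by 3.07 with IFN-γ (SE 0.35, adjusted p = 3.617e-06) and rose by 1.59 on adding AX-0085 (SE 0.42, adjusted p = 0.004634), at 4 to 77 counts per library.

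Of the mRNAs of SRF, the MRTFs, YAP, TAZ and the TEAD factors, those of SRF alone were called in any of the 4 comparisons. With IFN-γ, WWTR1, the TAZ gene, was also called with library-size scaling (-1.05) and TEAD4 without untreated replicate 2 (1.04) or IFN-γ replicate 2 (1.09). SRF stood at 42.8 ± 0.737 CPM in untreated cells, 33.2 ± 0.832 with AX-0085, 132 ± 6.43 with IFN-γ and 47.5 ± 5.23 with both (SD, n = 2). It rose by 1.63 with IFN-γ (SE 0.08, adjusted p = 1.08e-09) and fell by 1.48 when AX-0085 was added (SE 0.08, adjusted p = 3.369e-09). MRTFA, the gene of MRTF-A, changed by 0.38 with IFN-γ (adjusted p = 0.0001091) and by 0.05 upon addition of AX-0085 (adjusted p = 0.5076), and MRTFB changed by -0.43 (adjusted p = 0.0002272) and 0.70 (adjusted p = 2.959e-06).

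YAP1 changed by 0.00 with IFN-γ (adjusted p = 0.9839), by 0.48 with AX-0085 alone (adjusted p = 0.000191) and by 0.12 upon its addition to IFN-γ (adjusted p = 0.1976). WWTR1, which encodes TAZ, changed by -0.93 (adjusted p = 2.143e-08), 0.35 (adjusted p = 0.0002824) and 0.73 (adjusted p = 2.622e-07) in the same comparisons. Neither YAP1 nor WWTR1 was called in these comparisons, and neither fell where AX-0085 was added. Among the TEAD genes, TEAD4 changed by 0.95 with IFN-γ (adjusted p = 3.48e-07) and by -0.87 upon addition of AX-0085 (adjusted p = 9.654e-07). TEAD1 changed by 0.14 (adjusted p = 0.1189) and -0.16 (adjusted p = 0.083). TEAD2 changed by -0.85 (adjusted p = 4.392e-06) and 0.26 (adjusted p = 0.04035), and TEAD3 by 0.55 (adjusted p = 0.003032) and -0.67 (adjusted p = 0.0007954).

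Across the 181 other pathway genes, 160 could be tested. Their lists were chosen with earlier results of these data known, so an excess over the shares of all genes is not independent support. With IFN-γ 26 were called higher and 15 lower, beside 10.3% and 17.2% of all genes, with a median of 0.11. With AX-0085 alone 3 were called higher and 13 lower, beside 6.41% and 5.62%, with a median of -0.22. By adjusted p alone 25 were higher and 86 lower there, beside 26.7% and 26.6% of all genes. With AX-0085 added to IFN-γ 11 were called higher and 31 lower, beside 16.5% and 8.28%, with a median of -0.34. Between both agents and AX-0085 alone 3 were called higher and 1 lower, beside 1.79% and 1.73%. The plot of calls by gene group shows where the calls lie, and counts near these shares are not read as a response of a group.

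**Figure D5:**
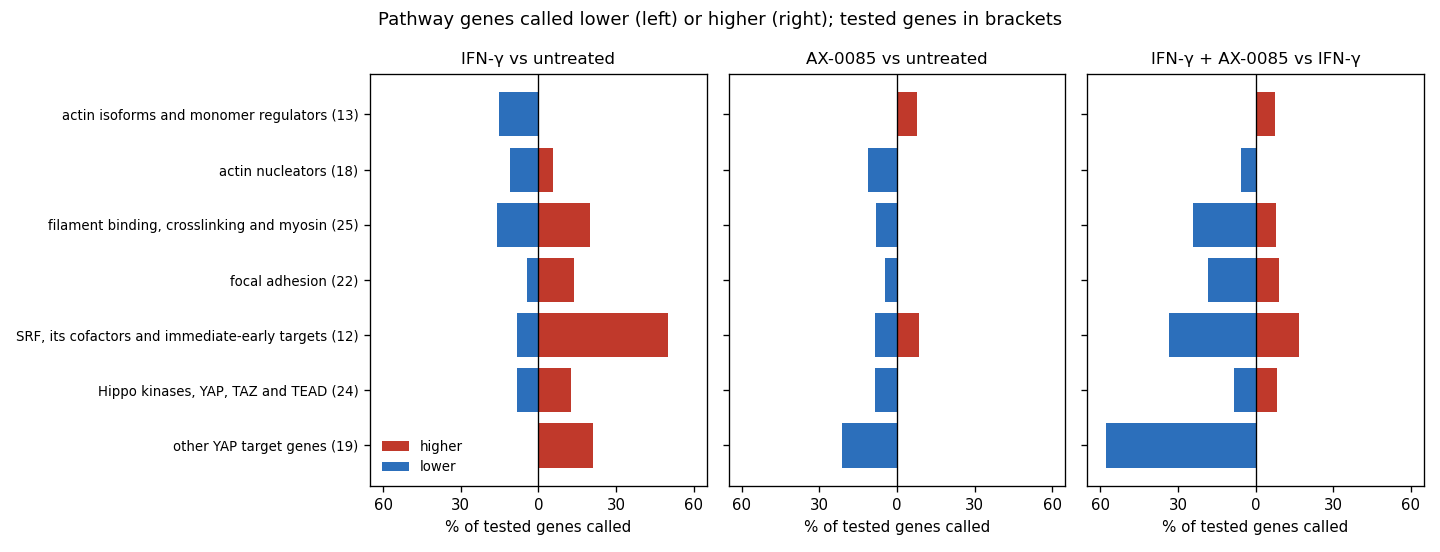
Percent of tested genes called higher (right of 0) or lower (left of 0) in 7 gene groups, whose numbers of tested genes stand in brackets, for 3 comparisons. With AX-0085 added to IFN-γ, 11 of 19 further YAP targets are called lower and 0 higher, beside 8.28% and 16.5% of all genes. With IFN-γ 6 of 12 genes of the SRF group are called higher, beside 10.3% of all genes.

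The group of SRF, its cofactors and immediate-early targets had 12 tested genes. With IFN-γ 6 were called higher and 1 lower, beside 10.3% and 17.2% of all genes, with a median of 0.87. Upon addition of AX-0085 2 were called higher and 4 lower, beside 16.5% and 8.28%, with a median of -0.82. IER3, an early response gene that limits cell death, rose by 1.66 with IFN-γ (SE 0.11, adjusted p = 1.622e-08), fell by 1.39 with AX-0085 alone (SE 0.14, adjusted p = 2.222e-06) and fell by 3.39 upon addition to IFN-γ (SE 0.13, adjusted p = 1.399e-10). FOS, a subunit of the AP-1 factor, moved in the opposite directions, by -1.61 (SE 0.36, adjusted p = 0.001282), 1.21 (SE 0.26, adjusted p = 0.001594) and 2.58 (SE 0.33, adjusted p = 1.397e-05). Its libraries with AX-0085 were uneven, at 569 and 325 counts, and without AX-0085 replicate 1 its change with AX-0085 alone was 0.70 and no longer called. Of the exon bases of IER3, 38.9% also lie in genes on the other strand.

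Of 25 tested genes for filament binding, crosslinking and myosin, 5 were called higher and 4 lower with IFN-γ, 0 and 2 with AX-0085 alone, and 2 and 6 upon its addition to IFN-γ. Of all genes 10.3% and 17.2%, 6.41% and 5.62%, and 16.5% and 8.28% were called in these comparisons. By adjusted p alone, 22 of the 25 were lower with AX-0085 alone and 2 higher, beside 26.6% and 26.7% of all genes. LIMA1, a filament-stabilizing LIM protein, rose by 2.57 with IFN-γ (SE 0.08, adjusted p = 2.027e-11). MYLK, which encodes myosin light chain kinase, changed by -2.70 with IFN-γ (SE 0.13, adjusted p = 8.807e-10) and rose by 2.12 on adding AX-0085 (SE 0.13, adjusted p = 1.265e-08). CNN1, a calponin of smooth muscle, was at 1 and 1 counts with AX-0085 against 6 and 7 in untreated cells, a ratio of 0.163 with an exact 95% counting interval of 0.0179 to 0.720. It is 1 of the 2 genes called lower with AX-0085 alone, and that call was lost with DESeq2 (adjusted p = 0.08252) and without untreated replicate 2 (adjusted p = 0.08438), AX-0085 replicate 1 (adjusted p = 0.07443) or AX-0085 replicate 2 (adjusted p = 0.08537). CNN1 fell by 2.23 with AX-0085 added to IFN-γ (SE 0.43, adjusted p = 0.0004878).

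The 22 focal adhesion genes had 3 calls higher and 1 lower with IFN-γ, 0 and 1 with AX-0085 alone, and 2 and 4 upon its addition to IFN-γ. Of all genes 10.3% and 17.2%, 6.41% and 5.62%, and 16.5% and 8.28% were called in these comparisons. ENAH, which extends filaments at the leading edge, rose by 1.73 with IFN-γ (SE 0.08, adjusted p = 8.693e-10), and PDLIM5, an adaptor of the Z-line and stress fibers, fell by 1.31 (SE 0.07, adjusted p = 1.61e-09). PDLIM7, a related adaptor, fell by 1.22 with AX-0085 alone (SE 0.11, adjusted p = 9.744e-07) and by 1.41 upon addition to IFN-γ (SE 0.10, adjusted p = 7.276e-08). TLN2, the minor talin, rose by 1.27 in that last comparison (SE 0.10, adjusted p = 1.207e-07).

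Of 18 tested nucleators, 1 was called higher and 2 lower with IFN-γ, 0 and 2 with AX-0085 alone, and 0 and 1 upon its addition to IFN-γ. The shares of all genes were 10.3% and 17.2%, 6.41% and 5.62%, and 16.5% and 8.28% in the same order. All named genes of this group are formins, which build unbranched filaments. FMNL1 rose by 1.59 with IFN-γ (SE 0.07, adjusted p = 3.027e-10) and FHOD1 fell by 1.53 (SE 0.09, adjusted p = 4.072e-09). FMNL3 fell by 1.91 with AX-0085 alone (SE 0.16, adjusted p = 5.921e-07). DIAPH3 fell by 1.07 upon its addition to IFN-γ (SE 0.09, adjusted p = 2.765e-07), a change of -0.95 with library-size scaling.

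The Hippo group, with 24 tested genes, had 3 calls higher and 2 lower with IFN-γ, 0 and 2 with AX-0085 alone, and 2 and 2 upon its addition. The shares of all genes were 10.3% and 17.2%, 6.41% and 5.62%, and 16.5% and 8.28% in the same order. AJUBA, which inhibits the LATS kinases, rose by 2.26 with IFN-γ (SE 0.15, adjusted p = 1.824e-08) and fell by 1.86 upon addition of AX-0085 (SE 0.14, adjusted p = 1.043e-07). LIMD1, from the same LIM protein family, rose by 1.21 there (SE 0.11, adjusted p = 5.303e-07). TAOK2, an upstream kinase, fell by 1.56 with IFN-γ (SE 0.07, adjusted p = 5.014e-10). WWC1, which encodes the LATS activator KIBRA, fell by 1.26 with AX-0085 alone (SE 0.06, adjusted p = 2.707e-09).

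The genes whose log2 CPM ran most like that of ACTB over the 8 libraries, among 7372 genes of at least moderate level, were CDC123 (Pearson r = 0.9971), KIF1C (r = 0.9965) and TTLL12 (r = 0.9952). For CCN2, among 7373 genes, they were CRY1 (r = 0.9971) and RPL7L1 (r = 0.9963). These correlations describe 8 libraries in 4 treatment groups, which all genes share, and carry no test.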

How the data were processed

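RNA of A549 cells was sequenced from TruSeq stranded mRNA libraries as paired-end reads. The authors trimmed reads with Trim Galore 0.6.7, mapped them to GRCh38 with STAR 2.7.9a and deposited raw counts per gene from featureCounts, whole numbers without normalization. The annotation release, the strand setting and the treatment of multimapping reads are not given in the sources used here, and the last can move reads between ACTB and ACTG1. Symbols and positions came from GENCODE 44, and promoters from RefSeq (GRCh38.p14).

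Genes were filtered (filterByExpr), scaled by TMM (factors 0.916 to 1.04) and tested with edgeR 4.0.16 (quasi-likelihood, R 4.3.3) in 1 model of the 4 groups without covariates, with Benjamini-Hochberg adjustment over 15066 genes. Total counts of 20672828 to 29978251 set the precision, and counting intervals cover counting error only. The standard error is the log2 change divided by the square root of F. Libraries of a group differed by more than sampling noise (chi-square over degrees of freedom 8.55 to 27.7). Scripts were tested on simulated data.

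The members and all gene lists were chosen with earlier results of these data known. Members carry no p where AX-0085 is compared with untreated cells, and ACTB carries one only where AX-0085 is added to IFN-γ. The genes named were the 10 members, the SRF, MRTF, YAP, TAZ and TEAD genes, ACTA2, in each list the called gene with the largest rise and fall in each of the first 3 comparisons, the 3 reference genes HPRT1, RPL13A and GAPDH, and the 3 genes most correlated with ACTB and with CCN2 at a mean log2 CPM of at least 4. Alternatives were DESeq2 1.42.0 (Wald test and size factors), library-size scaling, other filters, a fit of only the compared groups, no limit on the fold, a block on the replicate number, and leaving out each library. A block with swapped numbers was chosen after seeing the data. Some genes and 1 gene group that this rule or the lists hold are not reported here.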

Additional observations from a re-analysis of the deposited data

Results flagged for a closer look

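For 14 of the named pathway genes the change with AX-0085 differed between cells with and without IFN-γ, by more than 2-fold and with an adjusted p under 0.05 for the interaction in edgeR. Most of them were named for large changes in comparisons that share libraries with the interaction. Their number therefore cannot be set against the shares of all genes that follow. The interaction is the log2 change of AX-0085 added to IFN-γ minus that of AX-0085 alone, and it was called higher for 12.1% and lower for 6.46% of all 15066 genes tested. It was negative, so that the inhibitor lowered the gene more in the presence of IFN-γ, for SRF (-1.11), LIMA1 (-2.70), ENAH (-1.24), IER3 (-1.99), RND3 (-2.24) and GADD45A (-3.22). LIMA1 and GADD45A were higher with AX-0085 alone, by 0.68 and 0.32, and lower upon its addition to IFN-γ, by -2.03 and -2.90. It was positive for GSN (1.26), FHOD1 (1.26), FMNL3 (1.24), MYLK (2.62), TLN2 (1.11), FOS (1.36), TAOK2 (1.23) and CCN4 (3.11). The interaction of SRF was no longer over 2-fold with library-size scaling, that of TLN2 was 0.97 without IFN-γ replicate 1, and that of FOS had an adjusted p of 0.07878 with DESeq2. The call of FOS was also lost without untreated replicate 1 (1.28), AX-0085 replicate 2 (0.98), IFN-γ replicate 2 (1.13) or replicate 1 of the combined group (0.93). Among the 9 measured members, the interaction is a description without a test, and no member had libraries that moved one way with AX-0085 alone and the other way upon its addition to IFN-γ.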

How the results depend on the processing

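No called value of a named gene and no count changed direction under the alternatives. The counts rest on the 2-fold limit. By adjusted p alone the members had 1 lower with IFN-γ, 8 lower with AX-0085 added to IFN-γ, and 3 higher and 1 lower with both against AX-0085. Pathway genes then numbered 72 higher and 50 lower with IFN-γ, 25 and 86 with AX-0085, 36 and 93 upon its addition to IFN-γ, 46 and 32 for both against AX-0085, and 45 and 58 for the interaction. Of all genes 32.1% and 36.0%, 26.7% and 26.6%, 33.7% and 32.8%, 17.3% and 17.4%, and 26.7% and 23.6% passed there. With at least 10 counts in every library, 3 members lay over 2-fold lower with AX-0085 alone, which is not a test. ANKRD1 was then left out and TAGLN stood at -0.99. Pathway genes called lower between both and AX-0085 were 0 under that filter. Counts of members with AX-0085 alone describe the comparison that chose them. Leaving out single libraries gave 0 to 1 members and 1 to 2 pathway genes called lower between both agents and AX-0085, where the extra member was ANKRD1 without either IFN-γ library. Library-size scaling moved the median of all genes by -0.116 for IFN-γ alone, by 0.122 where AX-0085 was added to it and by 0.117 for the interaction, and the members moved with it. Correlations of the replicates' deviations between groups ran from -0.356 to 0.346. With so few libraries a group, they cannot decide whether the replicate numbers pair the libraries. The replicate block left 3 members called higher with IFN-γ and 4 lower upon addition of AX-0085, and swapping the numbers of 2 groups gave the same counts. Depth limits ANKRD1 (6 to 17 counts with the inhibitor), TAGLN, CNN1 and CCN4.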

Other observations

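Paralogs of TPM1, chosen after their values were seen, moved unequally. Among these tropomyosins, TPM4 rose by 1.15 with IFN-γ (SE 0.06, adjusted p = 1.822e-09) and fell by 1.21 upon addition of AX-0085 (SE 0.06, adjusted p = 1.52e-09). TPM2 changed by -0.08 (adjusted p = 0.2533) and -0.10 (adjusted p = 0.1386) in these comparisons, and TPM3 by -0.54 (adjusted p = 1.591e-06) and -0.27 (adjusted p = 0.000811). The differences between paralogs were not tested.

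CSRP1, the LIM protein that made up most of the fibroblast and smooth muscle marker sum, followed the order of CCN1, with 352 ± 23.7 CPM in untreated cells, 159 ± 0.682 with AX-0085, 1205 ± 85.4 with IFN-γ and 263 ± 1.51 with both (SD, n = 2). It rose by 1.77 with IFN-γ (SE 0.07, adjusted p = 1.193e-10) and fell by 2.19 upon addition of AX-0085 (SE 0.07, adjusted p = 2.943e-11).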
